A study of Mus musculus with 4 samples.

Results

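The p53 targets and the apoptosis machinery described here are 31 genes taken from a list, of which 19 are targets of the transcription factor p53 and 12 are further components of the cell death pathway. Their probe sets were found by annotation, and where a gene had several, the brightest one on average over the 4 arrays stood for it. Of the 31 genes 30 had a probe set, out of 18193 genes with one on the array, and 29 passed the level filter and were tested, out of 13366 tested genes. Bax, which encodes a pore-forming protein of the mitochondrial outer membrane, was not analysed here. Eda2r, a receptor of the tumour necrosis factor receptor family that binds an ectodysplasin, did not pass the filter.

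The arrays compared 2 GIC with 2 non-GIC samples. GIC (glioma initiating cell-like) is a tumorigenic subline and non-GIC a nontumorigenic one. Both were labelled as neural stem cells of C57BL/6 mice and p53-/-, prepared from embryonic day 14.5 telencephalon. Both carried pCMS-EGFP-HRasL61, which encodes GFP and an activated HRas, with pBabe-neo for selection, and were grown as floating spheres with PDGF and bFGF and sorted for GFP. All differences below are therefore between sublines that both lack p53, and no group with p53 was part of the comparison. The p53 transcript itself was not analysed here. Whether the arrays of a subline represent separate cultures is not in the labels, and p-values then reflect the scatter of these 4 samples alone, which may be technical. Any difference between the sublines goes along with tumorigenicity and cannot be told apart from it.

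p53 is activated by DNA damage and oncogene signals, binds response elements near its target genes and raises their transcription. Some targets restrain growth and aid repair, others trigger cell death. In the mitochondrial pathway, BH3-only proteins such as Bbc3, Bcl2l11 and Bid activate the pore formers Bax and Bak1, which the prosurvival proteins Bcl2, Bcl2l1 and Mcl1 hold in check. Released cytochrome c then assembles with Apaf1 and caspase 9 into the apoptosome. Many of these targets also respond to other transcription factors, so they can be transcribed in cells without p53.

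Stretches that resemble p53 sites are shown first, because both sublines lack p53. Whether p53 binds these stretches was not tested. A p53 response element is a pair of half-sites of 10 bases each. Promoter windows from RefSeq (GRCm38.p6), running from 250 bases before to 50 bases after a start, were searched for the best abutting pair against the p53 consensus, which reads the same on both strands. Pairs with a spacer and sequence outside these windows were not searched, so a gene without a pair here may have one elsewhere. The table held 36 windows for 25 of the genes, without Zmat3, Trp53inp1, Pmaip1, Perp, Tnfrsf10b and Bik. A pair with at most 3 mismatches of 20 was found in 44.4% of the 18 windows of p53 targets, in 0 of the 18 windows of the other apoptosis genes, and in 6.29% of all 32851 promoter windows. The Aen pair lies in overlapping windows and is counted in each. These genes were listed as p53 targets, so the comparison with all windows is not an independent test. The p53 targets with such a pair were 7 of 14, one of them Bax, against 7.2% of all genes with a promoter window. The other 6 are shown with flanking sequence, in the direction of transcription. Capitals mark the bases that match the consensus within the pair.
Ccng1, chr11:40755442-40755501, minus strand: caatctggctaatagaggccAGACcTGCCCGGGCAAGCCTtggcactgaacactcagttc
Bbc3, chr7:16309466-16309525, plus strand: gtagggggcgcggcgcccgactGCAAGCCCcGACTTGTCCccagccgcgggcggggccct
Aen, chr7:78895932-78895961, plus strand: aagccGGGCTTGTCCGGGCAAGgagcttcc
Sesn1, chr10:41887246-41887305, plus strand: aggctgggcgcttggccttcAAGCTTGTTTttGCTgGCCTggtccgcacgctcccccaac
Gadd45a, chr6:67037612-67037657, minus strand: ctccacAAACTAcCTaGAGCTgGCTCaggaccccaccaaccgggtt
Tigar, chr6:127109726-127109785, minus strand: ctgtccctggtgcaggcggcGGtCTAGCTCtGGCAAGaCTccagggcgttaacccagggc
The Ccng1 pair had 1 mismatch, which 0.0883% of all promoter windows equalled or bettered, and the others had 3. It begins 195 bases before the start, that of Bbc3 97, that of Sesn1 173, that of Gadd45a 244 and that of Tigar 213 bases before it. The Aen pair begins 121 bases before one annotated start and 10 bases after another. A match describes the letters only, and the search was made after the expression values were known.

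None of the 29 tested genes passed the test between GIC and non-GIC, against 1.92% of all tested genes (limma with Benjamini-Hochberg adjustment over all genes, threshold 0.05). At an unadjusted p under 0.05 there were 11 of the 29, against 17.9% of all genes. In GIC 4 of them were higher (9.75% of all genes) and 7 lower (8.1% of all genes). The arrays of the sublines did not overlap for 14 of the 29, against 50.4% of all genes. A difference of at least 2-fold was seen in 4 of the 29, against 6.63% of all genes. These were Bmf, Trp53inp1 and Btg2 on the higher side (4.37% of all genes) and Bid on the lower (2.26% of all genes). The median log2 fold change (GIC minus non-GIC throughout) was 0.19 over 17 p53 targets and -0.07 over 12 apoptosis machinery genes, beside -0.01 over all tested genes. Median sizes regardless of sign were 0.48 and 0.44, beside 0.21 over all genes. In bulk RNA, fewer cells of a type and less RNA per cell cannot be told apart. An exact permutation test of 1 gene on 2 against 2 arrays has 0.333 as its smallest two-sided p.

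**Figure D1:**
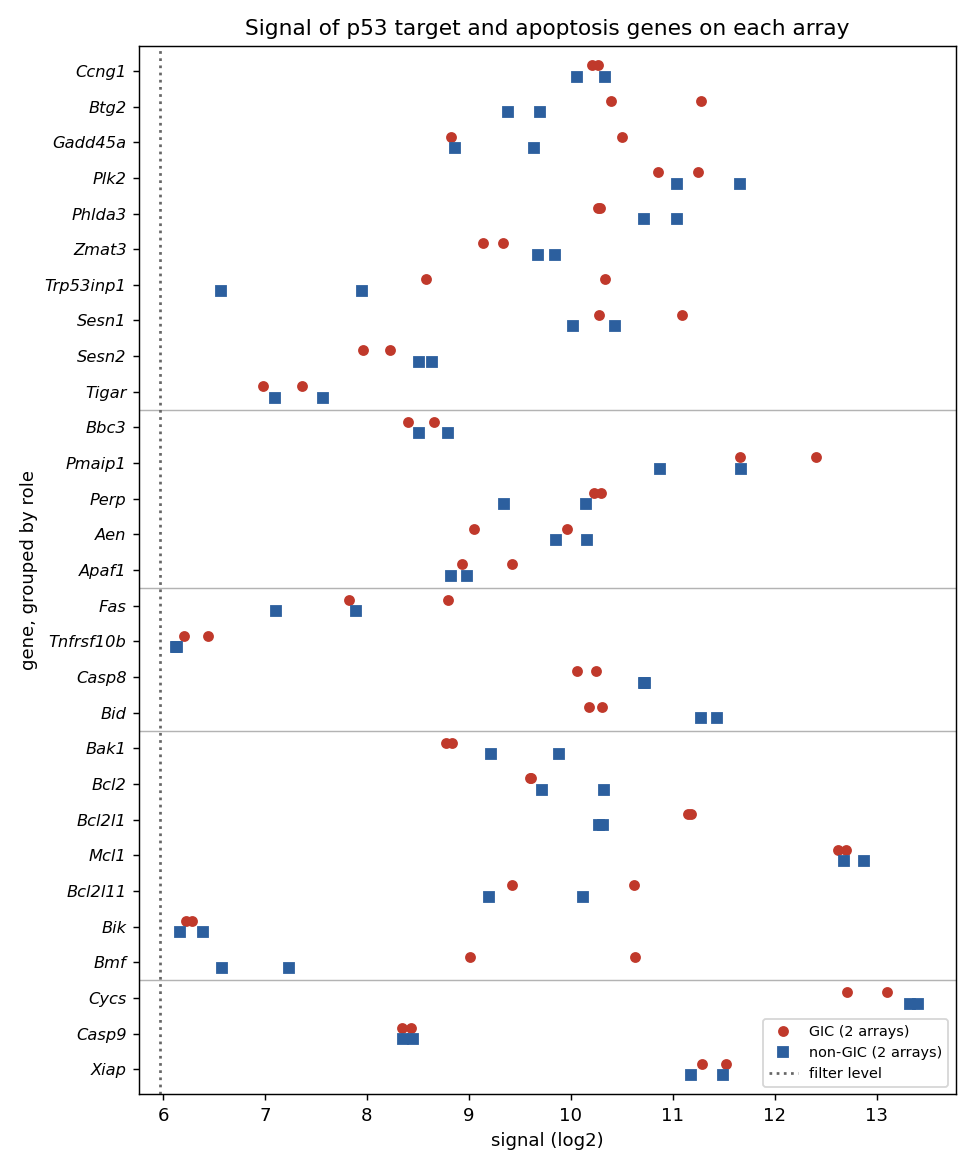
Deposited log2 signal of the 29 tested genes (x axis) on each array, with GIC as circles above non-GIC squares in each row, grouped by role (horizontal lines), and the filter level as a dotted line. GIC and non-GIC points are apart for 14 genes, Bid, Bcl2l1, Bmf and Btg2 among them, and interleaved for the rest, such as Ccng1, Bbc3 and Casp9. Positions of different genes on the axis are not comparable, since they come from different probe sets.

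**Figure D2:**
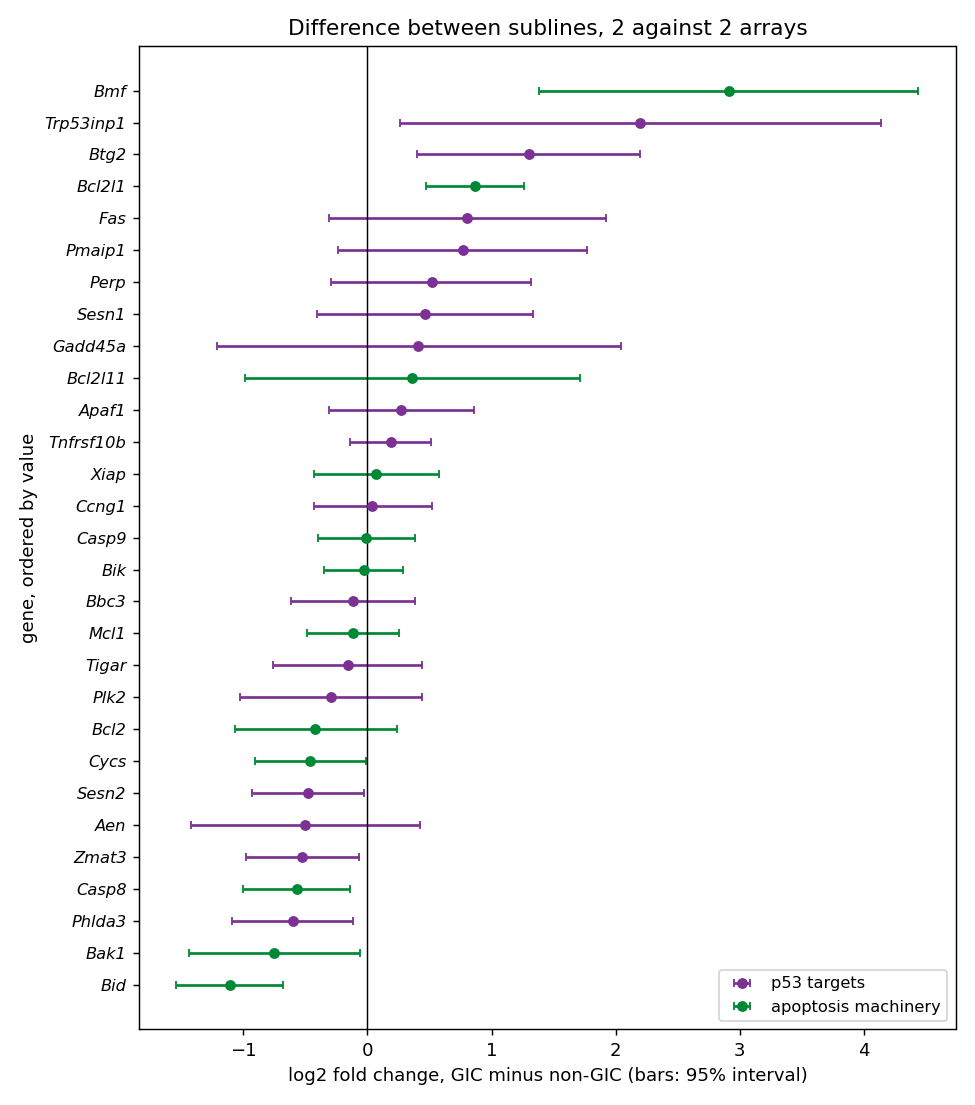
Log2 fold change (GIC minus non-GIC) of each tested gene with the 95% interval of the limma fit, ordered by value, for p53 targets and apoptosis machinery. Values run from -1.11 for Bid to 2.91 for Bmf. The intervals of 11 genes leave out 0 before adjustment, and none of these genes passed after it.

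Among the p53 targets that restrain growth or aid repair, the 4 with a pair within 3 mismatches of the consensus had overlapping signals in the sublines. Ccng1, which encodes cyclin G1, a feedback regulator of p53, had log2 signals of 10.27 and 10.21 on the GIC arrays, against 10.06 and 10.34 in non-GIC. The GIC values lay within the non-GIC range, and the difference of 0.04 had a 95% interval of -0.43 to 0.52. All 3 Ccng1 probe sets gave differences between 0.01 and 0.04. Tigar, which encodes a fructose bisphosphatase that lowers glycolytic flux, had 6.98 and 7.36 in GIC, against 7.57 and 7.10 in non-GIC (difference -0.16, interval -0.76 to 0.44). Sesn1, a sestrin that inhibits growth signalling through mTORC1, had 11.09 and 10.28 in GIC, against 10.02 and 10.43 in non-GIC. The groups overlapped in both genes. Gadd45a, a stress-induced protein that slows the cell cycle, had 10.50 and 8.82 in GIC, against 8.86 and 9.64 in non-GIC. The GIC arrays thus enclosed the non-GIC values, and the difference was -0.43 without GIC replicate 1 but 1.25 without GIC replicate 2.

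Btg2, an antiproliferative protein that promotes messenger RNA deadenylation, and Trp53inp1, a nuclear cofactor of p53 with a role in autophagy, had the largest differences among the p53 targets. Btg2 had 11.28 and 10.39 in GIC, against 9.70 and 9.38 in non-GIC. Both GIC arrays lay above both non-GIC arrays, by 1.30 on average (SE 0.34, 2.46-fold, adjusted p = 0.165). Its second probe set repeated this with a difference of 1.18. Trp53inp1 had 10.34 and 8.58 in GIC, against 6.57 and 7.95 in non-GIC. The groups did not overlap, but the arrays within each subline were more than 2-fold apart, and the difference of 2.20 (SE 0.74, adjusted p = 0.239) ranged from 1.32 without GIC replicate 1 to 3.08 without GIC replicate 2. Its other probe set differed by 0.63.

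Phlda3, Zmat3 and Sesn2 lay on the other side. Phlda3, which encodes a pleckstrin homology domain protein that restrains Akt, had 10.29 and 10.27 in GIC, against 10.72 and 11.04 in non-GIC (difference -0.60, SE 0.19, adjusted p = 0.208). Zmat3, an RNA-binding zinc finger protein, had 9.14 and 9.33 in GIC, against 9.84 and 9.68 in non-GIC (difference -0.53, SE 0.17, adjusted p = 0.231). Sesn2, a leucine-sensing sestrin that also responds to amino acid stress, had 7.96 and 8.23 in GIC, against 8.64 and 8.51 in non-GIC (difference -0.48, SE 0.17, adjusted p = 0.261). In all 3 genes both GIC arrays lay below both non-GIC arrays, and the sign held under every alternative tried. The second Sesn2 probe set had a difference of -1.08. Sesn1 and Sesn2, which belong to one family, thus had differences of opposite sign, 0.46 and -0.48, neither of which passed. Plk2, a polo-like kinase, had 10.86 and 11.25 in GIC, against 11.66 and 11.04 in non-GIC, and the groups overlapped.

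The p53 targets that promote death directly had overlapping signals in the sublines, with the exception of Perp. Bbc3 (Puma), a BH3-only protein, had 8.66 and 8.40 in GIC, against 8.79 and 8.51 in non-GIC. The difference was -0.12 with an interval of -0.62 to 0.38, and its promoter pair has 3 mismatches. Pmaip1 (Noxa), a BH3-only protein that neutralises Mcl1, had 12.41 and 11.66 in GIC, against 11.67 and 10.87 in non-GIC. Here GIC replicate 2 and non-GIC replicate 1 had nearly the same value, and the difference of 0.77 had an interval of -0.24 to 1.77. Perp, a membrane protein of desmosomes, had 10.23 and 10.30 in GIC, against 9.34 and 10.15 in non-GIC. Its groups did not overlap, but the non-GIC arrays were 0.81 apart and the difference was 0.52 (adjusted p = 0.462). Aen, an exonuclease of apoptotic cells, had 9.05 and 9.96 in GIC, against 10.16 and 9.85 in non-GIC. The groups overlapped, and of its 4 probe sets 2 differed upward and 2 downward. Apaf1, the scaffold of the apoptosome, had 9.42 and 8.93 in GIC, against 8.82 and 8.98 in non-GIC, with differences of 0.26 and 0.27 on its 2 probe sets.

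The 6 tested genes with a pair within 3 mismatches of the p53 consensus had differences from -0.50 for Aen to 0.46 for Sesn1. Their median was -0.04. Their groups overlapped in all 6, while 50.4% of all genes had groups that did not overlap, and 0 of the 6 had an unadjusted p under 0.05, against 17.9% of all genes. The 17 tested genes with a promoter window and no such pair within it ranged from -1.11 (Bid) to 2.91 (Bmf), with a median of -0.12. Of these 17, 9 had an unadjusted p under 0.05, against the same 17.9%. Groups did not overlap in 10 of the 17, against the same 50.4%. The split depends on the cut-off of 3 mismatches. Btg2, Bcl2l1, Casp8 and Xiap, among the 17, had a best pair with 4. Of these genes Btg2, Bcl2l1 and Casp8 had groups that did not overlap and an unadjusted limma p under 0.05. The 17 include all 11 apoptosis machinery genes with a window, Bid and Bmf among them, whereas the 6 are all p53 targets. The sets thus differ in the kind of gene as well as in the pair. Zmat3, Trp53inp1, Pmaip1, Perp, Tnfrsf10b and Bik had no window and are in neither set. The difference between these gene sets was not tested, since the sets were formed after the values were known.

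The genes of the death receptor branch were led by Bid, which encodes the BH3-only protein that caspase 8 cleaves to link death receptors to mitochondria. Bid had log2 signals of 10.18 and 10.31 on the GIC arrays, against 11.43 and 11.28 in non-GIC. Both GIC arrays lay far below both non-GIC arrays, with arrays of a subline within 0.14 of each other. The difference was -1.11 (SE 0.16, interval -1.54 to -0.68), or 2.16-fold lower in GIC, with an adjusted p of 0.0577, which missed the threshold. Its 3 probe sets gave -1.11, -1.12 and -0.96, and leaving out each array in turn gave -1.18 to -1.04. The adjusted p lay between 0.0527 and 0.334 over all alternatives but a block with crossed replicate numbers, chosen after seeing the data, under which Bid passed. Casp8, the initiator caspase itself, had 10.06 and 10.25 in GIC, against 10.73 and 10.72 in non-GIC. It too lay lower on both GIC arrays, by a smaller amount (difference -0.57, SE 0.16, adjusted p = 0.193).

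The receptors themselves differed less clearly. Fas, the receptor of Fas ligand, had 8.79 and 7.82 in GIC, against 7.11 and 7.89 in non-GIC. Only GIC replicate 1 lay above both non-GIC arrays, and the difference of 0.80 had an interval of -0.31 to 1.92. Tnfrsf10b, the mouse TRAIL receptor, had 6.20 and 6.44 in GIC, against 6.14 and 6.13 in non-GIC, all close to the filter level of 5.97. Its groups did not overlap, but the difference was only 0.19 (limma adjusted p = 0.507). Eda2r had 5.24 and 5.27 in GIC, against 5.84 and 6.19 in non-GIC, so that 1 array of the 4 lay above that level and no test was made.

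In the Bcl2 family the prosurvival genes had differences of both signs, none of which passed. Bcl2l1, which encodes Bcl-xL, had 11.15 and 11.18 in GIC, against 10.32 and 10.28 in non-GIC. Arrays of a subline were nearly equal and the sublines were apart by 0.87 (SE 0.15, interval 0.47 to 1.26, 1.82-fold, adjusted p = 0.0829). The 3 Bcl2l1 probe sets past the filter gave 0.64 to 0.87, and leaving out each array gave 0.84 to 0.89. Bcl2 had 9.60 and 9.61 in GIC, against 10.33 and 9.72 in non-GIC, so its difference of -0.42 had the opposite sign and leaned on non-GIC replicate 1, without which it was -0.12. Mcl1 had 12.62 and 12.70 in GIC, against 12.88 and 12.68 in non-GIC. Its 6 probe sets lay between -0.19 and 0.06, the closest agreement between sublines among the prosurvival genes.

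Of the proapoptotic genes of the family, Bak1 and Bmf stood on opposite sides. Bak1, the pore former measured here, had 8.83 and 8.78 in GIC, against 9.88 and 9.22 in non-GIC (difference -0.75, SE 0.26, adjusted p = 0.254). Both GIC arrays were lower, and the second probe set had -0.55. Bmf, a BH3-only protein tied to the cytoskeleton, had 10.63 and 9.01 in GIC, against 6.58 and 7.23 in non-GIC. This was the largest difference of the 29 genes, 2.91 (SE 0.59, interval 1.38 to 4.44, 7.52-fold, adjusted p = 0.107), although the GIC arrays themselves were 1.62 apart. It was 3.72 without GIC replicate 2, where Bmf alone of the 29 passed (adjusted p = 0.0417), and 2.10 without GIC replicate 1. Its probe sets disagreed, with 2.91 on the one used, against 1.01 and -0.58 on the others, the last of a kind that can bind several transcripts. The Bmf probe set used is also of a kind that can bind more than one transcript. Bcl2l11 (Bim), a BH3-only protein induced by growth factor withdrawal, had 10.62 and 9.42 in GIC, against 9.20 and 10.12 in non-GIC, and the groups overlapped. Bik had 6.28 and 6.22 in GIC, against 6.39 and 6.17 in non-GIC, close to the filter level, and its other 2 probe sets lay below it.

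**Figure D3:**
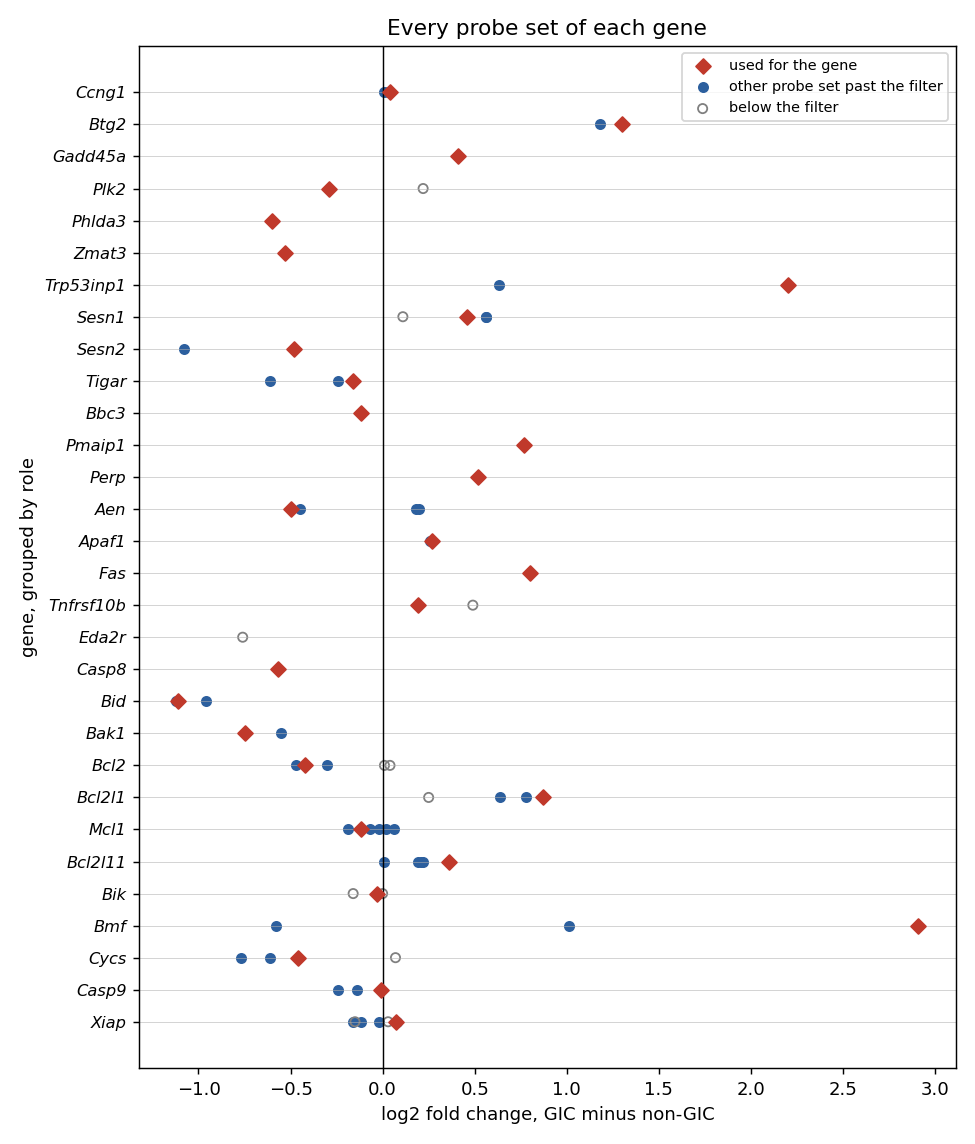
Log2 fold change (GIC minus non-GIC, x axis) of all 80 probe sets of the 30 genes, with the probe set used for each gene as a diamond, others past the filter as filled circles and those below it as open circles. Of 18 genes with several probe sets past the filter, Aen, Mcl1, Bmf and Xiap had both signs, and the 3 Bid and 3 Bcl2l1 probe sets kept theirs.

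Downstream of the mitochondria, Cycs, which encodes cytochrome c, had 12.71 and 13.10 in GIC, against 13.41 and 13.33 in non-GIC. Both GIC arrays were lower, and the 3 probe sets past the filter gave -0.46 to -0.77 (adjusted p = 0.274 for the one used). Casp9, the initiator caspase of the apoptosome, had 8.43 and 8.34 in GIC, against 8.45 and 8.35 in non-GIC, a difference of -0.01 with an interval of -0.40 to 0.38. Xiap, an inhibitor of caspases, had 11.52 and 11.29 in GIC, against 11.18 and 11.49 in non-GIC. Neither Casp9 nor Xiap separated the sublines, and their intervals leave out a 2-fold change either way.

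Some of these genes differed widely between the arrays of the same subline. The GIC arrays were at least 2-fold apart for 4 of the 29 genes (Bmf, Trp53inp1, Gadd45a and Bcl2l11), or 13.8%, against 3.16% of all tested genes. In each of the 4, GIC replicate 1 was the higher. The non-GIC arrays were that far apart for Trp53inp1 alone. A further pattern was shared by Trp53inp1, Sesn1, Apaf1, Fas, Bcl2l11, Bmf and Xiap, which were highest on GIC replicate 1 and lowest on non-GIC replicate 1. These were 7 of 29 genes, or 24.1%, against 16.4% of all genes. These genes were singled out after their values were seen.

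**Figure D4:**
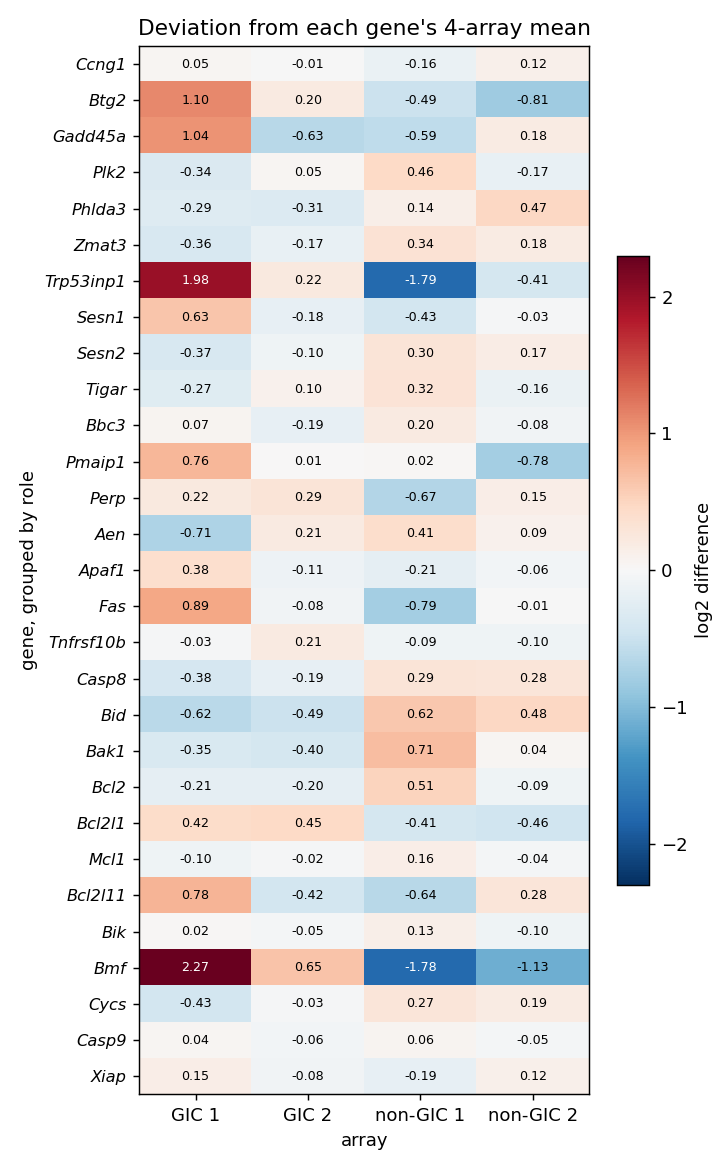
Deviation of each array from the gene's own mean over the 4 arrays (log2 colour scale, values printed), with GIC arrays left of non-GIC arrays. Bid and Bcl2l1 have like values on the arrays of a subline. In Trp53inp1, Bmf, Gadd45a and Bcl2l11, GIC replicate 1 deviates most, upward, and non-GIC replicate 1 deviates downward.

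Other genes of the same pathways were taken from lists. Of 23 tested further p53 targets 0 passed, and 9 had an unadjusted p under 0.05 (39.1%, against 17.9% of all genes), 5 of them higher and 4 lower in GIC. The DNA repair factor Ddb2 had 7.83 and 7.45 in GIC, against 6.48 and 6.54 in non-GIC (difference 1.13, adjusted p = 0.0601). Gadd45b, a relative of Gadd45a, had 10.94 and 10.64 in GIC, against 9.75 and 9.83 in non-GIC (adjusted p = 0.0926). Both were higher on both GIC arrays without passing. Of 9 tested further Bcl2 family genes 0 passed and 2 had an unadjusted p under 0.05, Bcl2l13 with a difference of -0.61 and Bok with one of -0.81. Of 16 tested further death receptor genes 0 passed and 4 had an unadjusted p under 0.05. Among them Tnfrsf21 (death receptor 6) had 9.00 and 8.24 in GIC, against 6.63 and 5.79 in non-GIC (difference 2.41, adjusted p = 0.0713), and the decoy receptor Tnfrsf23 had a difference of 0.69 (adjusted p = 0.101).

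Of 16 tested further caspase, apoptosome and IAP genes (inhibitors of apoptosis) 1 passed (6.25%, against 1.92% of all genes), and 4 had an unadjusted p under 0.05, against 17.9% of all genes. The gene that passed was Xaf1, an interferon-inducible antagonist of Xiap. Xaf1 rose in GIC, with 10.94 and 9.57 in GIC, against 6.60 and 6.65 in non-GIC. The difference was 3.63 (SE 0.47, adjusted p = 0.0459), and Xiap itself differed by 0.07. The Xaf1 call was lost with the replicate number as a block (limma adjusted p = 0.126) and with eBayes without a trend (0.0548). It was also lost without non-GIC replicate 1 (difference 3.61) and without non-GIC replicate 2 (difference 3.66). Averaging its probe sets gave a difference of 1.88. Leaving out GIC replicate 1 gave 2.94 and leaving out GIC replicate 2 gave 4.32.

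Markers of the labelled cell type lay in part below the filter level. Of 10 neural stem and progenitor markers 7 lay above the filter level on all arrays, including Nes, Sox2, Pax6 and Vim, while Sox1 and Prom1 lay below it on all arrays. Between the sublines Nes fell by 2.07 (limma adjusted p = 0.0459) and Cd24a rose by 1.22 (0.0356) in GIC, on the log2 scale. Fabp7 had 5.23 on both GIC arrays, below the filter level, against 6.58 and 6.89 in non-GIC. It passed the filter only through the non-GIC arrays, so its difference of -1.51 is not read as a test. Of 6 neuronal markers Map2 fell by 2.29 in GIC (limma adjusted p = 0.019). Tubb3 went the other way, with 9.77 and 10.06 in GIC, against 7.98 and 9.56 in non-GIC (difference 1.15, adjusted p = 0.363). Rbfox3 and Syt1 overlapped between the sublines, Stmn2 differed by -0.18 near the filter level, and Dcx lay below that level on all arrays. Of 7 leukocyte markers Ptprc, Aif1, Itgam and Tyrobp lay below the filter level on all arrays, and Csf1r and Cd68 above it on all arrays. Of 5 endothelial markers Pecam1, Cdh5 and Tie1 lay below it and Kdr and Cldn5 above it on all arrays. The summed signal of 7 mural and fibroblast markers was 15.18 and 13.32 (log2) in GIC, against 14.61 and 15.05 in non-GIC, with GIC replicate 2 lowest. Col1a1, Col3a1 and Pdgfrb were lowest on that array, whereas Col1a2 was highest on it. Dcn was lowest on non-GIC replicate 1, and Lum and Rgs5 lay below the filter level on all arrays. The summed signal of 6 oligodendrocyte lineage markers was 12.64 and 12.27 in GIC, against 10.46 and 10.91 in non-GIC, with Olig1 and Olig2 below the filter on all arrays. Pdgfra carried this sum, with 12.51 and 12.09 in GIC, against 9.68 and 10.41 in non-GIC, while Sox10, Cspg4 and Mbp differed by at most 0.13. The part of these markers in the differences above was not tested.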

How the data were processed

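Total RNA was hybridised to 4 oligonucleotide arrays, 2 GIC and 2 non-GIC, grouped by their titles. Per the labels, in vitro transcription with biotin made the labelled target. The deposited table holds a log2 signal for each of 45101 probe sets, with the base inferred from the range of values. The array medians were 6.58 to 6.63, so the values had been brought to a common scale. How background was corrected and probes were summarised and normalized is not given in the sources used here, and detection calls were not used. No array pair was identical (0 pairs). The number of arrays limits the precision.

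Names came from the platform's annotation, with symbols updated by Entrez identifier to GRCm38.p6. Of them 34958 had 1 symbol, 932 had several and 9160 were unnamed here. Those with several or none and 64 controls were left out. The level filter asked for 2 or more arrays over 5.97, the 40th percentile of the table. Differences were tested two-sided with limma 3.58.1 (R 4.3.3), using lmFit and eBayes with trend on, at 2 residual and 2.72 prior degrees of freedom, and adjusted by Benjamini-Hochberg over all tested genes. The 95% intervals are those of the fit, unadjusted. The procedure was tested on simulated data made from the means and fitted spread of these arrays. It recovered 11.6% of log2 changes of 1 and 76.3% of log2 changes of 2, with 5.1% of calls false. A gene that did not pass may therefore still differ. The simulated arrays were drawn as independent, with 200 of 13366 genes changed, and the shares hold for that setting only. Figures were drawn with matplotlib 3.10.9.

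The members and lists were chosen with earlier results of these data known. All members are named, and from each further list the genes that passed (at most 4) or else the 2 with the smallest p. The labels do not say that same-numbered arrays belong together, so the fit has no replicate block. Deviations of same-numbered arrays correlated at -0.324 over tested genes, so they tended to go in opposite directions. Alternatives covered the block, scaling, filter, probe set choice, eBayes options and leaving out each array.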

Additional observations from a re-analysis of the deposited data

How the results depend on the processing

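The count of changed genes over all 13366 was 257. It was 29 with the replicate number as a block, and 12 to 188 when each array was left out in turn. A group down to 1 array borrows its spread from the other subline in these fits. Of the 29 tested members, 0 changed under scaling, filter, probe set, eBayes and block alternatives, and 0 to 1 when each array was left out. Alternatives chosen after seeing the data were a block with crossed replicate numbers, which called 685 genes and 3 members (Bid, Bmf and Trp53inp1), and a test of every probe set, which called 409 probe sets and 0 of the members'. The median of the p53 targets, 0.19, was 0.11 without a filter, 0.27 with the filter at the 60th percentile, 0.27 with the mean of probe sets and 0.02 to 0.18 when each array was left out. That of the apoptosis machinery, -0.07, was -0.18 to -0.08 when each array was left out. Of 29 members, 20 kept the sign of their difference throughout, the crossed block aside, and 9 turned sign without passing in either direction. When each array was left out, Ccng1 ran from -0.10 to 0.18, Gadd45a from -0.43 to 1.25, Plk2 from -0.61 to 0.02, Tigar from -0.40 to 0.07, Bbc3 from -0.26 to 0.02, Bcl2l11 from -0.24 to 0.96, Bik from -0.14 to 0.08, Casp9 from -0.07 to 0.04 and Xiap from -0.09 to 0.23. Xiap was -0.04 with the mean of probe sets. Xaf1 had an adjusted p of 0.126 with the replicate block. Signals near the filter level limit what can be said of Tnfrsf10b, Bik and Eda2r.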
